A study of Mus musculus with 16 samples.

Results

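The mouse liver expresses a family of Cyp4a genes that encode fatty acid ω-hydroxylases, and 6 of them were taken by name for this account: Cyp4a10, Cyp4a14, Cyp4a31, Cyp4a32, Cyp4a12a and Cyp4a12b. All 6 were among the 50559 gene symbols of the count table and among the 18335 genes with enough counts to be tested. Livers of male C57BL/6J mice were measured by RNA sequencing in 4 groups of 4 libraries each, after 10 weeks of diet that began at 6 weeks of age. The LFD group (named chow in the labels) and the HFD group received for the last 4 weeks a control siRNA against luciferase (10 mg/kg, 2 weeks apart) and oral methylcellulose. The HFD + siRNA group was fed the HFD and received siRNA against ketohexokinase (KHK, which phosphorylates fructose) at 20 mg/kg with methylcellulose. The HFD + Inhib group was fed the HFD and received the control siRNA. It was also given the KHK inhibitor PF-06835919 by mouth at 15 mg/kg, 2 times a day. The siRNA carries a sugar tag that directs it to hepatocytes, whereas the inhibitor is systemic, so the treatments differ in the organs they reach as well as in how they act on KHK. The study also injected the mice with saline or insulin shortly before the tissue was taken, and the labels do not say which mouse received which.

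CYP4A enzymes sit in the endoplasmic reticulum and add a hydroxyl group to the terminal carbon of medium- and long-chain fatty acids. Alcohol and aldehyde dehydrogenases turn the products into dicarboxylic acids, which are shortened in the peroxisome. Cyp4a10 and Cyp4a14 are classical targets of PPARα, the fatty acid-sensing nuclear receptor of the liver. Cyp4a12a hydroxylates arachidonic acid, and its expression in mice is higher in males under androgen and growth hormone control. Cyp4a12b, Cyp4a31 and Cyp4a32 are close copies of the better known genes.

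All 6 genes lie on chromosome 4. In the RefSeq annotation of GRCm38.p6 their order is Cyp4a12a, Cyp4a12b, Cyp4a14, Cyp4a10, Cyp4a31 and Cyp4a32. Cyp4a29, Cyp4a30b and 2 pseudogenes lie in the same series of Cyp4a genes, and Cyp4a29 and Cyp4a30b had 0 counts in all 16 libraries. That assembly is older than mm39, which the submitters' processing notes name, so no positions are given. The coding sequences fall into 3 branches. Cyp4a10 was 97.2% identical to Cyp4a32 and 96.6% to Cyp4a31, Cyp4a12a and Cyp4a12b were 98.5% identical, and Cyp4a14 shared between 75.0% and 76.0% with any other member. A stretch of 60 aligned coding bases shows these branches, and it is printed because the likeness decides how well reads can be assigned to each gene. Bases are read from the GENCODE M21 transcripts 5′ to 3′, and capitals mark those that differ from Cyp4a10.
Cyp4a10: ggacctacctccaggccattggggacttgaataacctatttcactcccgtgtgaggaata
Cyp4a32: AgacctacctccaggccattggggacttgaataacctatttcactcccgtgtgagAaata
Cyp4a31: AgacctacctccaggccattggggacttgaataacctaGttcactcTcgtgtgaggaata
Cyp4a12a: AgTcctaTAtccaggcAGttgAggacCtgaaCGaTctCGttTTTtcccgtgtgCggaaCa
Cyp4a12b: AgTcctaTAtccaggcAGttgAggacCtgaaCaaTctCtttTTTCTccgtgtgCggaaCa
Cyp4a14: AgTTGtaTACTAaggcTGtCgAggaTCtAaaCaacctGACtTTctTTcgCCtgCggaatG
In this window Cyp4a32 and Cyp4a31 differ from Cyp4a10 at 2 and 3 bases, Cyp4a12a and Cyp4a12b differ from each other at 4 bases, and Cyp4a14 differs from Cyp4a10 at 28 bases.

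The table holds expected counts, in which reads that match several genes are divided between them by estimate. Over all annotated transcripts of each gene, the share of 50-base words found in no other gene was 99.8% for Cyp4a14, 79.4% for Cyp4a31, 70.2% for Cyp4a10, 56.2% for Cyp4a32, 51.1% for Cyp4a12a and 50.6% for Cyp4a12b. The level of Cyp4a14 is therefore the best separated of the 6. The division of reads among Cyp4a10, Cyp4a31 and Cyp4a32, and between Cyp4a12a and Cyp4a12b, is uncertain, and sums over these genes are given where they bear on a result. The libraries held between 24317111 and 35820234 expected counts, with group medians of 28920038 in LFD, 26714482 in HFD, 30485808 in HFD + siRNA and 30468092 with the inhibitor. Levels are CPM (expected counts scaled to a common library size) after TMM scaling, with the SD over 4 libraries, and a gene is said to rise or fall where edgeR's quasi-likelihood test gave an adjusted p under 0.05 over all tested genes.

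Khk itself was measured first, as a check of the labels. The level of Khk was 266 ± 59.8 CPM in LFD, 264 ± 39.8 in HFD, 12.6 ± 3.84 in HFD + siRNA and 120 ± 24 with the inhibitor (n = 4 each). It was lower in HFD + siRNA than in HFD by 4.38 on the log2 scale (SE 0.23, edgeR adjusted p = 1.9e-08), and it also dropped by 1.14 in HFD + Inhib (SE 0.20, edgeR adjusted p = 7.5e-04). All 10 hepatocyte markers were detected in every group, led by albumin (Alb) at 29904 ± 1758 to 57182 ± 6892 CPM.

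The Cyp4a genes were among the transcripts that rose furthest with the KHK inhibitor, between rank 28 and rank 97 of all tested genes by the size of the fold change in either direction. All 6 were higher in HFD + Inhib than in HFD, by between 9.77-fold (Cyp4a12a) and 42.8-fold (Cyp4a31), and in none of the 6 did the groups overlap. Of all tested genes 9.80% rose in this comparison and 8.42% fell. The median log2 fold change of the 6 was 4.90, beside -0.00 for all tested genes.

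Cyp4a14, the best separated gene, had 118, 277, 259 and 147 CPM in the 4 LFD libraries. It had 201, 74.7, 330 and 197 CPM in HFD and 201, 138, 147 and 140 CPM in HFD + siRNA. In HFD + Inhib it had 7363, 6850, 6990 and 6880 CPM. The first 3 groups overlapped throughout, and the lowest inhibitor library stood far above the highest library of any other group. The difference from HFD was 35-fold (log2 fold change 5.13, SE 0.39, edgeR adjusted p = 3.1e-07). Among all tested genes Cyp4a14 ranked 545 by mean CPM in HFD and 16 in HFD + Inhib.

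Cyp4a10 had 55.6, 130, 182 and 114 CPM in LFD, 100, 104, 178 and 135 in HFD, and 135, 184, 107 and 104 in HFD + siRNA. In HFD + Inhib it had 5831, 5110, 4429 and 4457 CPM. As for Cyp4a14, the 3 groups without inhibitor overlapped and every inhibitor library was far above them. The increase over HFD was 38.3-fold (log2 fold change 5.26, SE 0.34, edgeR adjusted p = 3.4e-08). Cyp4a10 moved from rank 936 in HFD to rank 27 in HFD + Inhib.

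**Figure D1:**
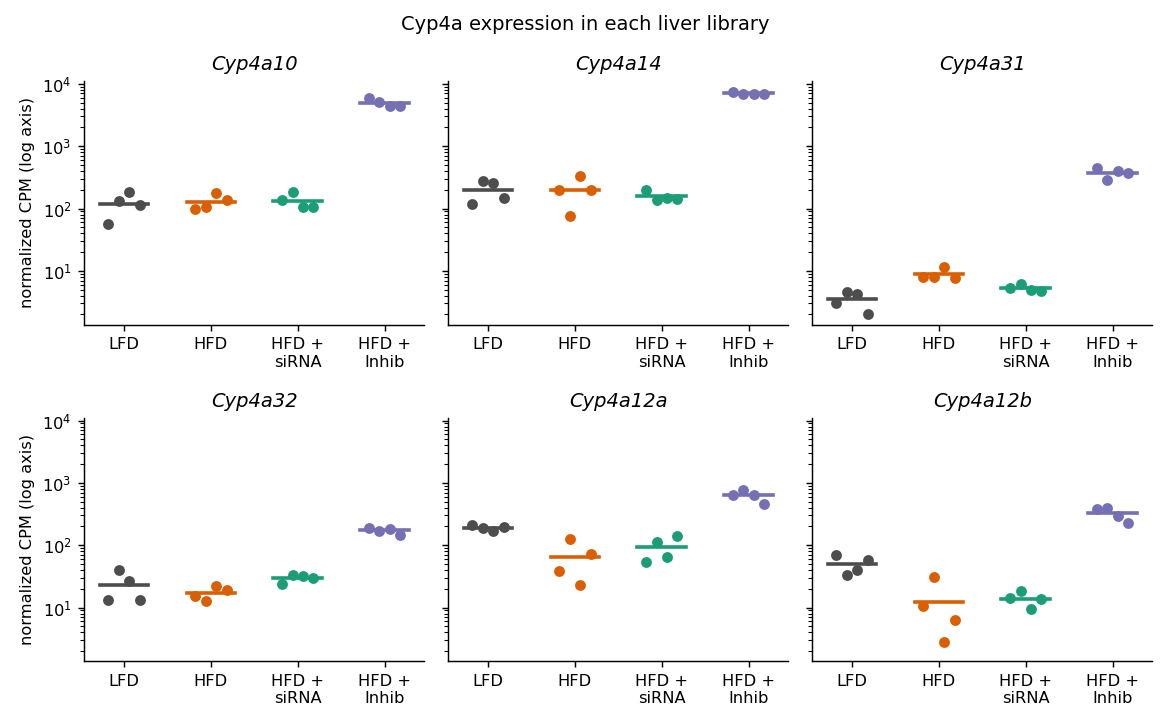
Normalized CPM on a log axis of the 6 Cyp4a genes in each of the 16 liver libraries, grouped by diet and treatment; points are libraries and lines are group means. The HFD + Inhib libraries lie above all others for every gene, and in HFD Cyp4a12a ranged from 22.8 to 125 CPM and Cyp4a12b from 2.76 to 30.4.

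Cyp4a31 had the lowest mean CPM of the 6 in each group without the inhibitor, although Cyp4a12b was below it in HFD replicates 3 and 4. It had 3, 4.58, 4.27 and 2.06 CPM in LFD, 7.96, 7.96, 11.5 and 7.65 in HFD, and 5.25, 6.24, 4.86 and 4.75 in HFD + siRNA. In HFD + Inhib it had 449, 288, 394 and 367 CPM. No pair of groups overlapped for Cyp4a31, with the order LFD, HFD + siRNA, HFD, HFD + Inhib. The inhibitor group exceeded HFD 42.8-fold (log2 fold change 5.42, SE 0.23, edgeR adjusted p = 3.4e-10), the highest estimate of the 6 with all libraries. With a library left out the log2 fold change of Cyp4a31 was 5.32 to 5.57, and that of Cyp4a12b reached 5.62.

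Cyp4a32 rose less than its close copies. It had 13.2, 39.7, 27.1 and 13.3 CPM in LFD, 15.1, 12.8, 22.1 and 19.4 in HFD, 23.8, 32.7, 32.1 and 30.2 in HFD + siRNA, and 192, 172, 185 and 144 in HFD + Inhib. The inhibitor libraries again stood apart from the rest. The difference from HFD was 10-fold (log2 fold change 3.32, SE 0.30, edgeR adjusted p = 1.6e-06). The ratio of Cyp4a32 to Cyp4a10 CPM was 0.135 ± 0.0139 in HFD and 0.0352 ± 0.00444 in HFD + Inhib, and no inhibitor library reached the lowest ratio of another group (0.118, in LFD). This ratio rests on the division of shared reads, since 32.6% of the words of Cyp4a32 occur in Cyp4a10. Summed over Cyp4a10, Cyp4a31 and Cyp4a32, the log2 fold change was 5.15 (SE 0.31, edgeR adjusted p = 1.9e-08).

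Cyp4a12a, the male-biased member, had 208, 186, 167 and 193 CPM in LFD and 38.1, 125, 22.8 and 72.2 in HFD. It had 53.3, 111, 63.6 and 142 CPM in HFD + siRNA and 637, 780, 644 and 463 in HFD + Inhib. Its close copy Cyp4a12b had 68.7, 33, 40.1 and 57.9 CPM in LFD and 10.5, 30.4, 2.76 and 6.42 in HFD. Cyp4a12b had 14.4, 18.2, 9.36 and 13.7 CPM in HFD + siRNA and 377, 399, 296 and 230 in HFD + Inhib. For both genes the LFD libraries lay between those on HFD and those with the inhibitor. Cyp4a12a rose 9.77-fold with the inhibitor relative to HFD (log2 fold change 3.29, SE 0.43, edgeR adjusted p = 5.4e-05). Cyp4a12b rose 25.6-fold (log2 fold change 4.68, SE 0.54, edgeR adjusted p = 1.7e-05), and its log2 fold change was 5.62 without HFD replicate 2.

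The pair did not keep the same proportion. Cyp4a12b was 0.262 ± 0.0677 of Cyp4a12a in LFD, 0.182 ± 0.0915 in HFD, 0.169 ± 0.0727 in HFD + siRNA and 0.515 ± 0.0554 with the inhibitor. The lowest ratio with the inhibitor (0.46) was above the highest of any other group (0.33). Because nearly as many words of these genes are shared as are their own, the split carries the error of the assignment, which the SDs do not include. The sum of both genes was 77.1 ± 56.6 CPM in HFD and 957 ± 202 in HFD + Inhib (log2 fold change 3.63, SE 0.43, edgeR adjusted p = 2.6e-05).

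Together the 6 genes took 0.0574% ± 0.0117 of library counts in LFD, 0.046% ± 0.00993 in HFD, 0.0424% ± 0.00453 in HFD + siRNA and 1.31% ± 0.0558 with the inhibitor (SD, n = 4). The first 3 groups overlapped, and the lowest inhibitor library was at 1.26%. The make-up of the family also differed between groups. Cyp4a12a and Cyp4a12b held 33.4% ± 9.04 and 9.14% ± 4.58 of Cyp4a counts in LFD, and 4.68% ± 0.882 and 2.4% ± 0.461 in HFD + Inhib. Cyp4a14 and Cyp4a10 held 52.2% ± 2.62 and 36.7% ± 2.22 in HFD + Inhib. The shares of Cyp4a12a and Cyp4a14 varied most within HFD, where Cyp4a12a ranged from 4.03% to 35.2% and Cyp4a14 from 21% to 58.1%, and the library with the most Cyp4a12a (replicate 2) had the least Cyp4a14.

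**Figure D2:**
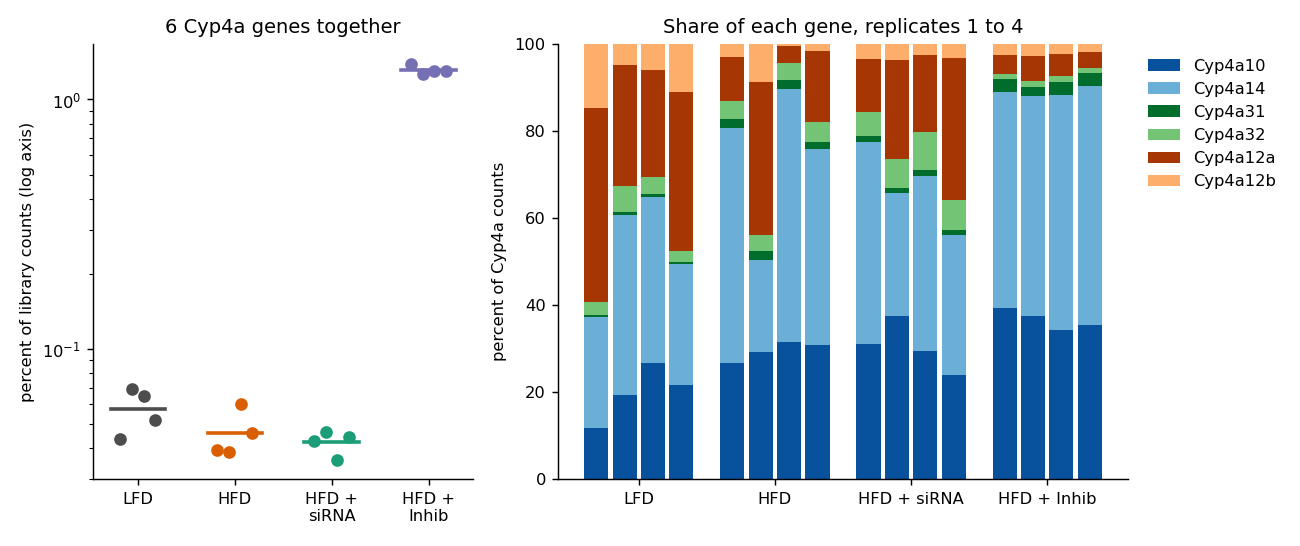
Left, percent of library counts in the 6 Cyp4a genes together on a log axis, by group, with points for libraries and lines for means; right, the share of each gene in the Cyp4a counts of each library, replicates 1 to 4 from left to right in each group. The total was 0.0424% to 0.0574% on average without the inhibitor and 1.31% with it, where Cyp4a14 and Cyp4a10 made up most of the family.

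Levels of different genes were compared per kilobase of transcript. In LFD the order was Cyp4a14 (80.3 ± 31.9 CPM per kb), Cyp4a12a (77.8 ± 6.98), Cyp4a10 (57 ± 24.7), Cyp4a12b (20.8 ± 6.81), Cyp4a32 (15.3 ± 8.32) and Cyp4a31 (1.39 ± 0.465). The ranges of the first 3 overlapped, as did those of Cyp4a10 and Cyp4a12b and those of Cyp4a12b and Cyp4a32, while Cyp4a31 stood below all others. In HFD the order was Cyp4a14 (80.4 ± 41.7), Cyp4a10 (61.3 ± 17.2), Cyp4a12a (26.6 ± 18.7), Cyp4a32 (11.3 ± 2.72), Cyp4a12b (5.24 ± 5.16) and Cyp4a31 (3.49 ± 0.727), and every neighbouring pair overlapped in range. In HFD + siRNA Cyp4a10 (62.7 ± 17.5) and Cyp4a14 (62.7 ± 11.9) could not be separated, followed by Cyp4a12a (38.2 ± 17.2), Cyp4a32 (19.4 ± 2.68), Cyp4a12b (5.81 ± 1.51) and Cyp4a31 (2.1 ± 0.27). Cyp4a12a still overlapped with the first pair, and each later neighbour was separate. In HFD + Inhib Cyp4a14 (2813 ± 94.5) and Cyp4a10 (2350 ± 314) came first with slightly overlapping ranges. Cyp4a12a (261 ± 53.7), Cyp4a31 (149 ± 26.7), Cyp4a12b (136 ± 32.4) and Cyp4a32 (113 ± 13.6) followed, of which Cyp4a12a stood above the other 3 and these overlapped with each other.

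The HFD itself acted differently on different members. Relative to LFD, Cyp4a31 rose and Cyp4a12a and Cyp4a12b fell, so that 1 of 6 members was higher and 2 were lower, where 9.58% and 8.79% of all tested genes were higher and lower. Cyp4a12a was 2.91-fold lower (log2 fold change -1.54, SE 0.40, edgeR adjusted p = 0.0146) and Cyp4a12b 3.93-fold lower (-1.97, SE 0.49, edgeR adjusted p = 0.0113). Without HFD replicate 2 the value for Cyp4a12b was -2.92. The sum of Cyp4a12a and Cyp4a12b fell by 1.63 on the log2 scale (SE 0.40, edgeR adjusted p = 0.0116), so this decrease did not depend on how reads were divided between them. Cyp4a31 was 2.5-fold higher (log2 fold change 1.32, SE 0.21, edgeR adjusted p = 8.6e-04). The sum of Cyp4a10, Cyp4a31 and Cyp4a32, of which Cyp4a10 makes up most, had a log2 difference of 0.08 (SE 0.26, edgeR adjusted p = 0.866). Cyp4a10 differed by 0.10 (95% interval -0.49 to 0.70), Cyp4a14 by 0.00 (-0.70 to 0.70) and Cyp4a32 by -0.43 (-1.03 to 0.16). Changes within these intervals were not excluded.

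**Figure D3:**
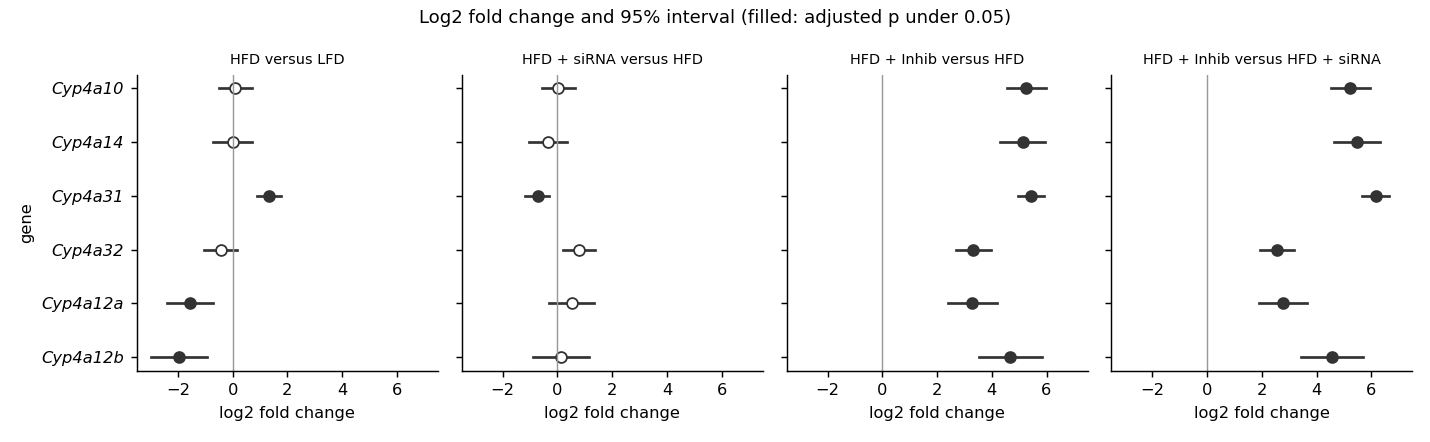
Log2 fold change of each Cyp4a gene in 4 comparisons, with horizontal lines for 95% intervals and filled points for an adjusted p under 0.05. With the inhibitor all 6 genes lie between 3.29 and 5.42 relative to HFD, whereas the siRNA estimates lie between -0.73 and 0.78.

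With KHK siRNA the estimates of the 6 members went in both directions. Relative to HFD, 1 of 6 members fell and 0 rose by edgeR, and 1 rose and 1 fell both by DESeq2 and at an unadjusted p under 0.05, where 5.20% of all tested genes rose and 6.55% fell. Cyp4a31 was the member that fell (log2 fold change -0.73, SE 0.20, edgeR adjusted p = 0.0288). This call was lost without HFD replicate 3 (adjusted p = 0.11) and without HFD + siRNA replicate 1 (0.0585), 3 (0.0681) or 4 (0.0792) in the same edgeR test, and the sum of Cyp4a10, Cyp4a31 and Cyp4a32 differed by 0.11 (SE 0.26). Cyp4a32 lay higher in all 4 siRNA libraries than in any HFD library, by 0.78 on the log2 scale (SE 0.28), which did not pass (edgeR adjusted p = 0.082). Cyp4a10 differed by 0.03 (95% interval -0.56 to 0.63) and Cyp4a14 by -0.36 (-1.05 to 0.34). Cyp4a12a differed by 0.52 (-0.31 to 1.35) and Cyp4a12b by 0.13 (-0.88 to 1.14), with overlapping groups.

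The treatments were then compared directly. All 6 members were higher in HFD + Inhib than in HFD + siRNA, where 17.3% of all tested genes were higher and 16.6% lower. The difference was 44.9-fold for Cyp4a14, 37.5-fold for Cyp4a10, 71.1-fold for Cyp4a31, 5.84-fold for Cyp4a32, 6.82-fold for Cyp4a12a and 23.4-fold for Cyp4a12b. The edgeR adjusted p was highest for Cyp4a12a (1.2e-04). The comparisons with HFD share the HFD libraries, so this direct comparison is the one that sets the treatments against each other.

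Against LFD, all 6 members were higher in HFD + Inhib, where 18.8% of all tested genes were higher and 18.2% lower. Cyp4a31 was 107-fold higher and Cyp4a12a 3.35-fold higher (log2 fold change 1.74, SE 0.40, edgeR adjusted p = 0.00301), so the inhibitor group was above LFD even for the genes that fell on HFD. In HFD + siRNA versus LFD 1 of 6 members was lower and 0 higher by edgeR (1 and 0 by DESeq2, 2 and 1 at an unadjusted p under 0.05), where 4.75% of all tested genes were higher and 3.88% lower. Cyp4a12b was the lower one (log2 fold change -1.84, SE 0.48, edgeR adjusted p = 0.0266). The sum of Cyp4a12a and Cyp4a12b did not pass (log2 fold change -1.16, SE 0.40, edgeR adjusted p = 0.0845). The call of Cyp4a12b was also lost without LFD replicate 1 (0.0641) or HFD + siRNA replicate 1 (0.0614), 3 (0.0809) or 4 (0.0656) in the same edgeR test. Cyp4a12a had no overlap between these groups but did not pass (log2 fold change -1.02, SE 0.39, edgeR adjusted p = 0.128).

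The spread between libraries differed by member and group. In LFD the coefficient of variation was 8.98% for Cyp4a12a and 39.7% for Cyp4a14, beside a median of 18.3% over all tested genes. In HFD this order turned, with 70.2% for Cyp4a12a and 98.5% for Cyp4a12b, beside a median of 13.9%, and Cyp4a14 had 51.9%. In HFD + Inhib Cyp4a14 had 3.36%, beside a median of 15.7%. The HFD library with the most Cyp4a12a also had the most Cyp4a12b (replicate 2), and the one with the least of both was replicate 3, where Cyp4a12b rested on 72.8 counts.

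Genes of the same pathway were then examined by list. Of 37 tested targets of PPARα, 34 rose with the inhibitor relative to HFD and 0 fell by edgeR (0 also fell by DESeq2 and at an unadjusted p under 0.05), with a median log2 fold change of 1.40, beside 9.80% and 8.42% of all tested genes that rose and fell. Without Ucp3, which passed the filter on low counts only through the inhibitor libraries, the count was 33 of 36. The 3 that did not pass were Cpt1a (0.21), Fgf21 (-0.95) and Txnip (0.84). Ehhadh, the bifunctional enzyme of peroxisomal β-oxidation, had 285, 235, 314 and 276 CPM in HFD and 9061, 6811, 5557 and 6443 in HFD + Inhib (log2 fold change 4.65, SE 0.16, edgeR adjusted p = 4.2e-11). Acot1, a cytosolic acyl-CoA thioesterase, rose from 16.2 ± 1.13 to 356 ± 91.3 CPM (log2 fold change 4.46). Ucp3, a mitochondrial carrier found mainly in muscle, had at most 3 counts in any HFD library and 4.69 ± 1.73 CPM with the inhibitor, which was at least 40-fold higher against a floor of 3 counts per library. In HFD versus LFD 15 of the 37 rose and 1 fell (median 0.36), beside 9.58% and 8.79% of all tested genes. In HFD + siRNA versus HFD 0 rose and 2 fell by edgeR (DESeq2 2 and 3, unadjusted p under 0.05 3 and 6), beside 5.20% and 6.55% of all tested genes, so the share that fell was near that of all genes.

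The genes of PPARα and its partners did not pass between HFD + Inhib and HFD. Of 10 genes that encode the receptor, its dimer partners, related receptors and cofactors, 0 rose and 0 fell in HFD + Inhib versus HFD by edgeR (DESeq2 0 and 0, unadjusted p under 0.05 1 and 1), beside 9.80% and 8.42% of all tested genes. Ppara, named after its values were seen, had 273 ± 30.7 CPM in LFD, 477 ± 92.8 in HFD, 437 ± 27.2 in HFD + siRNA and 586 ± 61.7 with the inhibitor. It rose from LFD to HFD (log2 fold change 0.81, SE 0.13, edgeR adjusted p = 7.6e-04), and its difference between HFD + Inhib and HFD was 0.29 (95% interval 0.03 to 0.56, edgeR adjusted p = 0.12). Against HFD + siRNA 1 of the 10 was higher with the inhibitor, Ppara (log2 fold change 0.42), and 3 were lower, Rxra (-0.54), Nr1h3 (-0.41) and Pparg (-0.34), beside 17.3% and 16.6% of all tested genes. Against LFD Ppara was higher by 1.10 (SE 0.13, edgeR adjusted p = 9.0e-06).

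Partners of ω-oxidation pass electrons to the P450s, oxidize the hydroxy fatty acids and shorten the dicarboxylic acids in the peroxisome. Of 29 tested, 17 rose with the inhibitor and 1 fell (median log2 fold change 0.98), and 16 of 28 rose without Acot5, which passed the filter on low counts only through the inhibitor libraries. Of all tested genes 9.80% rose and 8.42% fell. In all, 6 genes of this list are also on the PPARα list. Acot3, a peroxisomal thioesterase, had 9.14, 17.4, 38.1 and 43.9 CPM in HFD and 210, 235, 115 and 271 in HFD + Inhib (log2 fold change 2.94, SE 0.45, edgeR adjusted p = 2.4e-04). Acot5, another peroxisomal thioesterase, had at most 1.05 counts in HFD and 1.13 ± 0.629 CPM with the inhibitor, at least 9.63-fold higher on the same floor. The steps next to the Cyp4a enzymes, named after their values were seen, were mixed. Por, the reductase that supplies electrons to P450s, had a log2 fold change of 1.30 (SE 0.22, edgeR adjusted p = 5.4e-04), and Aldh3a2, the fatty aldehyde dehydrogenase, of 1.59 (SE 0.13, edgeR adjusted p = 4.1e-07). Aldh9a1, another aldehyde dehydrogenase, rose by 0.70 (SE 0.09, edgeR adjusted p = 3.3e-05). The other electron carriers Cyb5a (0.21), Cyb5b (0.23) and Cyb5r3 (0.03) did not pass, nor did the aldehyde dehydrogenase Aldh1a1 (0.13). The alcohol dehydrogenases Adh1 (0.29), Adh4 (-0.17), Adh5 (0.17) and Adh7 (0.21), which act directly after the Cyp4a enzymes, did not pass.

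Of 9 tested genes of other Cyp4 subfamilies, 2 rose and 2 fell with the inhibitor (median log2 fold change 0.00), beside 9.80% and 8.42% of all tested genes. Cyp4f17 rose from 12.9 ± 1.77 to 23.4 ± 7.41 CPM and Cyp4f15 from 102 ± 15.2 to 141 ± 24.6. Cyp4f14, which acts on leukotrienes and vitamin E, fell from 198 ± 22.9 to 78.7 ± 19.1 CPM (log2 fold change -1.33, SE 0.14, edgeR adjusted p = 5.0e-06). Cyp4f18, a leukocyte enzyme, fell from 0.588 ± 0.158 to 0.271 ± 0.0542 CPM, on between 6 and 10 counts per inhibitor library.

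**Figure D4:**
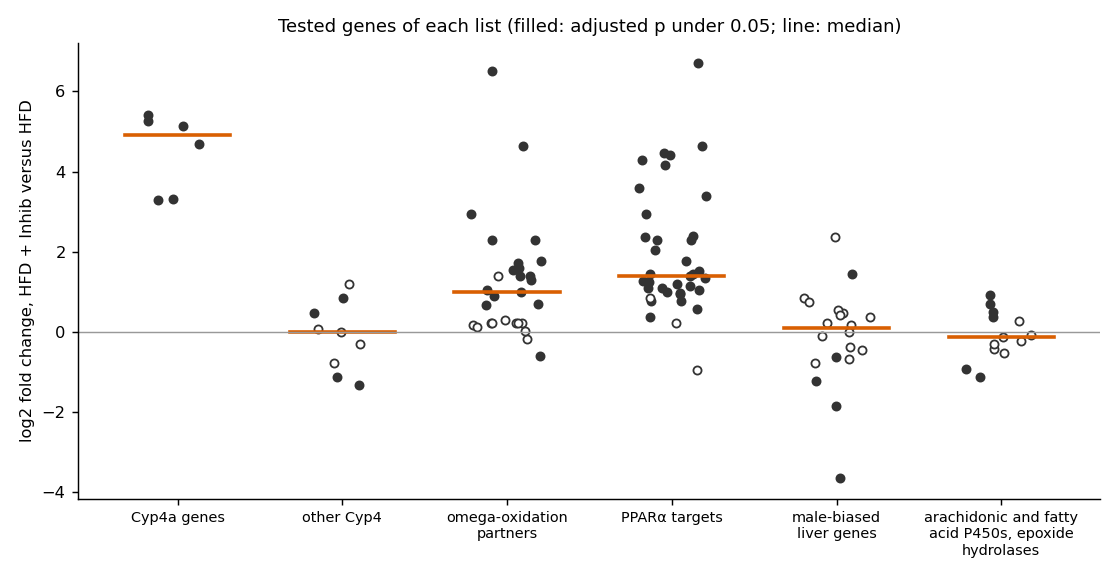
Log2 fold change in HFD + Inhib versus HFD of the tested genes of 6 lists; each point is a gene, filled where the adjusted p was under 0.05, and lines are medians. The median was 4.90 for the Cyp4a genes, 1.40 for PPARα targets, 0.98 for ω-oxidation partners and 0.00 for other Cyp4 genes; the highest points among ω-oxidation partners and PPARα targets (Acot5 and Ucp3) are fitted values of genes at or under 3 counts in HFD.

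Other P450s and hydrolases of fatty acid and arachidonic acid metabolism were mixed, with 4 of 13 higher and 2 lower in HFD + Inhib than in HFD, beside 9.80% and 8.42% of all tested genes. Ephx2, the soluble epoxide hydrolase, rose from 641 ± 33.7 to 1204 ± 138 CPM (log2 fold change 0.91). Ephx1, the microsomal epoxide hydrolase, rose by 0.69 and Cyp2j5, an arachidonic acid epoxygenase, by 0.50 on the log2 scale. Cyp2c70, which hydroxylates bile acids in mice, fell by 1.13, and the epoxygenase Cyp2c50 fell by 0.93 with overlapping groups. Cyp2c genes have close copies, so their counts share the uncertainty of the Cyp4a genes.

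Cyp4a12a was set beside 20 other male-biased liver genes. In HFD versus LFD 12 of the 20 fell and 0 rose by edgeR (0 also rose by DESeq2 and at an unadjusted p under 0.05), with a median log2 fold change of -1.09, beside 8.79% of all tested genes that fell. In HFD + siRNA versus HFD 5 rose and 0 fell by edgeR (DESeq2 5 and 1, unadjusted p under 0.05 11 and 1), beside 5.20% and 6.55% of all tested genes. In HFD + Inhib versus HFD 1 rose and 4 fell by edgeR (DESeq2 3 and 4, unadjusted p under 0.05 4 and 5, median 0.09), beside 9.80% and 8.42% of all tested genes, and Cyp4a12a rose 9.77-fold. Elovl3, a fatty acid elongase, had 340, 349, 389 and 240 CPM in LFD, 73.1, 145, 49 and 23 in HFD, 172, 378, 118 and 471 in HFD + siRNA, and 183, 239, 240 and 125 in HFD + Inhib. It was lowest in HFD and passed in both treatment comparisons with overlapping ranges. Hsd3b5, a male-specific steroid dehydrogenase, had 168, 115, 199 and 155 CPM in LFD and 32.6, 57.1, 7.05 and 14.3 in HFD. It had 16.1, 139, 12 and 45 CPM in HFD + siRNA and 3.25, 2.06, 3.17 and 0.479 in HFD + Inhib, so it fell further with the inhibitor (log2 fold change -3.65, SE 0.80, edgeR adjusted p = 0.00439). Gstp1, a glutathione transferase, fell from 526 ± 165 to 225 ± 72.4 CPM, and the organic anion transporter Slco1a1 from 331 ± 75.4 to 91.6 ± 40.2. Replicate 2 had the highest HFD value of Cyp4a12a, Elovl3, Gstp1 and Hsd3b5 alike.

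**Figure D5:**
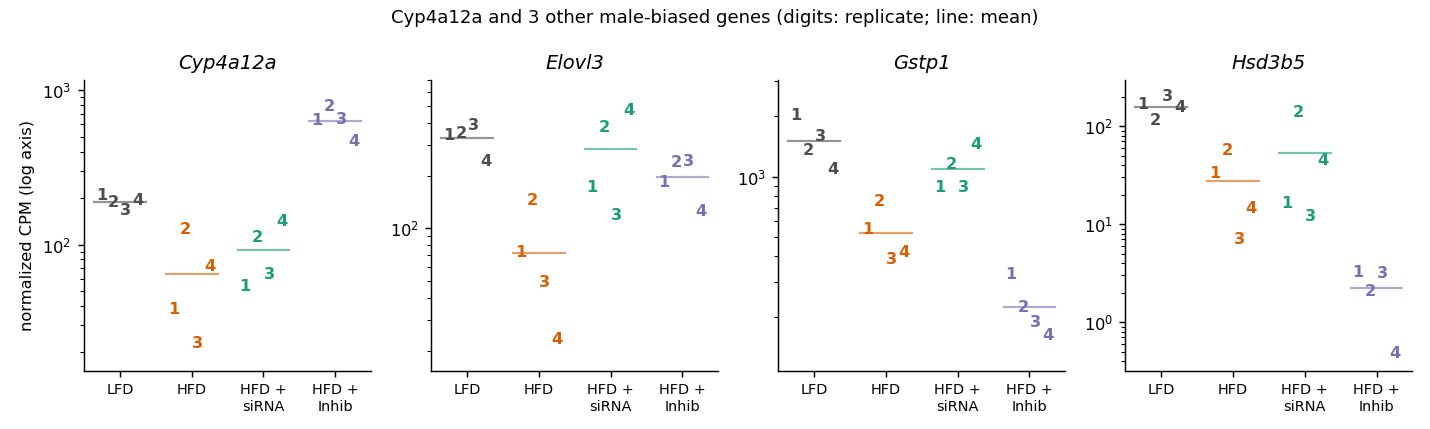
Normalized CPM on log axes of Cyp4a12a and of the male-biased genes Elovl3, Gstp1 and Hsd3b5 in each library; digits give the replicate and lines the group means, and each panel has its own axis. All 4 genes were lower in HFD than in LFD, and with the inhibitor Cyp4a12a lay above LFD at 463 to 780 CPM, whereas Hsd3b5 lay at 0.479 to 3.25.

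With the inhibitor relative to HFD, 0 of 13 female-biased genes rose and 0 fell by DESeq2, and 0 and 1 at an unadjusted p under 0.05. By edgeR 0 rose and 0 fell, beside 9.80% and 8.42% of all tested genes. In HFD versus LFD 5 rose and 2 fell, beside 9.58% and 8.79% of all tested genes. Of those that rose, Cyp2b13 had 0 counts in every LFD library and Hao2 at most 5. Cyp2a4 had between 0 and 25.9 counts in the LFD libraries and Cyp2b9 between 2 and 28. These genes passed the filter on low counts only through other groups, so the count of 5 rests largely on that filter. Cyp17a1 had at least 256 counts in every LFD library. Of those that fell, Cyp2c69 had at most 7.99 counts in HFD. Of 11 genes of the growth hormone axis, 0 rose and 2 fell with the inhibitor by edgeR (0 and 2 by DESeq2, 0 and 3 at an unadjusted p under 0.05), beside 9.80% and 8.42% of all tested genes. Igfals, a carrier subunit for circulating IGF proteins, went from 56.4 ± 11.9 to 35.3 ± 12 CPM, and Stat5b, the transcription factor that carries the growth hormone signal, from 65.6 ± 5.99 to 49 ± 3.73. Stat5b had also fallen from LFD (94.8 ± 17.8 CPM) to HFD.

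Genes outside the members were ranked by their likeness to Cyp4a14 and to Cyp4a12a. The measure was the root mean square difference of standardized log2 CPM over the 16 libraries. Candidates came from the 12399 genes whose log2 CPM averaged 1 or more. For Cyp4a14 the most alike included Hsd17b11 (0.154), Ehhadh (0.192), Rab9 (0.223) and Acot1 (0.23). Hsd17b11, a lipid droplet-associated dehydrogenase, had 122 ± 17.5 CPM in HFD and 822 ± 25.1 in HFD + Inhib. For Cyp4a12a they were Psmd4 (0.405), Psme1 (0.452), Manba (0.458), Trappc8 (0.467) and Mpp7 (0.473), which were less alike to it than those were to Cyp4a14. Psmd4, a proteasome subunit, had 59.8 ± 2.83 CPM in LFD, 51.7 ± 2.19 in HFD, 59.1 ± 5.68 in HFD + siRNA and 85.1 ± 3.89 with the inhibitor, a pattern of the same order and smaller range. Among the members, Cyp4a10 and Cyp4a14 differed by 0.177 and Cyp4a12a and Cyp4a12b by 0.263, while Cyp4a14 and Cyp4a12a differed by 0.701.

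Markers of cell types were read beside these results. Summed over 10 hepatocyte markers, the level was 99561 ± 7915 CPM in LFD, 86341 ± 7744 in HFD, 95301 ± 5641 in HFD + siRNA and 59054 ± 1450 with the inhibitor, and 4 of the 10 fell with the inhibitor relative to HFD, beside 8.42% of all tested genes. Alb, the most abundant, went from 50945 ± 5510 to 29904 ± 1758 CPM between HFD and HFD + Inhib. In bulk RNA, fewer cells of a type and less RNA per cell cannot be told apart. The kidney also expresses Cyp4a genes, and 6 of 8 kidney tubule markers (Umod, Slc34a1, Slc22a6, Kap, Slc12a1 and Aqp2) were at or under 3 counts in every library, with the sum of all 8 at 1.16 ± 0.381 CPM in HFD + Inhib and 1.76 ± 0.966 in HFD, led by Lrp2. Summed macrophage markers (8 genes, led by Clec4f) were 253 ± 22.9 CPM in HFD and 195 ± 37.7 in HFD + Inhib, stellate cell markers (8 genes, led by Reln) 458 ± 40.2 and 366 ± 25.4, and endothelial markers (7 genes, led by Stab2) 317 ± 22.9 and 303 ± 8.25. Lymphocyte markers (8 genes, led by Cd4) were at 5.78 ± 2.36 and 2.1 ± 0.566 CPM, and cholangiocyte markers (6 genes, led by Spp1) at 38.1 ± 8.61 and 36.7 ± 9.97. Of 5 adipocyte markers only Cfd had enough counts to be tested, with 2.58 ± 2.78 CPM in HFD and 34.5 ± 16.2 in HFD + Inhib. The other 4 were too low to be tested, and Adipoq, Lep and Plin1 were at 0 in 3 of 4 HFD libraries, with 0.257, 0.539 and 0.231 CPM in HFD replicate 2. In HFD + Inhib Adipoq reached at most 3 counts, Plin1 and Retn at most 1, and Lep 0. The part of these differences in the Cyp4a results was not tested.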

How the data were processed

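Liver RNA was analysed in 16 libraries, as 4 groups of 4 libraries, grouped by the deposited labels. The deposited file holds expected counts by gene symbol, not scaled between libraries, and the submitters' processing notes name STAR, RSEM and the mm39 build. The paper's methods name HTG EdgeSeq, a probe assay, which does not match RSEM expected counts, so the assay behind the table is uncertain. The values (15.1% not whole) were rounded to whole numbers, and their totals ranged from 24317111 to 35820234. No pair of libraries looked like 1 library deposited 2 times (24 pairs within groups, chi-square per gene of at least 20.5).

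Genes were kept by filterByExpr with a count of at least 10 and a total of at least 15, and 18335 of the 33142 genes with any count remained. All 6 comparisons came from 1 fit of the 16 libraries without covariates by edgeR's quasi-likelihood test with TMM scaling and Benjamini-Hochberg adjustment over all tested genes at a threshold of 0.05 (common dispersion 0.038). Standard errors are the log2 fold change over the square root of F. A value of 3 counts was taken as the floor. CPM for likeness were on a log2 scale with a prior count of 2. The labels number the replicates without saying that each is a separate mouse, so p-values measure the spread between these libraries, which may be technical, and the comparisons share control libraries. R 4.3.3, edgeR 4.0.16, limma 3.58.1, DESeq2 1.42.0, MAFFT 7.526 and matplotlib 3.10.9 were used, and the code was tested on simulated data.

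Sequence identity and transcript lengths came from the longest coding transcript of each gene in GENCODE M21 (GRCm38), and shared words from all its transcripts. The members, gene lists and tests were chosen with earlier results of these data known. Besides the 6 members and Khk, each list names up to 3 genes that rose and 3 that fell most with the inhibitor. These were taken among those with an adjusted p under 0.05. The rule also names the 5 genes outside the members that were most alike to Cyp4a14 and to Cyp4a12a. Of the genes this rule names, 2 are not reported here. Others are said to be named after their values were seen, or are counts of 5 or fewer written out. The alternatives for the members were DESeq2, RLE size factors, no filter, a minimum average log2 CPM of 1 and an adjusted p under 0.01. Further ones were the 2 compared groups alone, summed near-identical genes and the replicate number as a block. GC content and length offsets (5 degrees of freedom) were used alone and together with the block. Each library was also left out in turn. TMM-scaled totals were an alternative for the share of library counts only.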

Additional observations from a re-analysis of the deposited data

Results flagged for a closer look

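The check covered 28 groups of 4 libraries, for each of the 6 Cyp4a genes and for their joint percent of library counts. Of these, 2 held a library far from the other 3, and chance gives about 1 in 20. Cyp4a14 had 201 CPM in HFD + siRNA replicate 1, where the others had 138, 140 and 147 CPM. Cyp4a31 had 11.5 CPM in HFD replicate 3, where the others had 7.65, 7.96 and 7.96 CPM. Without HFD replicate 3, the edgeR adjusted p of Cyp4a31 in HFD + siRNA versus HFD was 0.11.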

How the results depend on the processing

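The increase of all 6 members in the 3 comparisons of HFD + Inhib was called under all 10 alternatives for the members. It was also called with each of the 8 libraries of a comparison left out (6 of 6 in each). With near-identical members summed, the genes of a sum share 1 test, so counts of members there are not counts of separate tests. Of 648 recomputed log2 fold changes of the 6 members, 611 kept their direction and side of the threshold, 14 lost the threshold, 3 gained it and 20 changed sign. In HFD versus LFD 3 members were called, 1 at an adjusted p under 0.01 and 3 with any library left out. With near-identical members summed it was 2, Cyp4a12a and Cyp4a12b, which are 1 test there (edgeR adjusted p = 0.0116). Cyp4a31 then took 0.08 (edgeR adjusted p = 0.866). In HFD + siRNA versus HFD 1 was called, 0 at an adjusted p under 0.01, 0 with near-identical members summed, 2 with DESeq2, 2 in a fit of the compared groups only, and 0 to 1 with a library left out. The second gene there was Cyp4a32 (log2 fold change 0.77 in both, adjusted p = 0.0361 with DESeq2 and 0.0148 in edgeR's fit of 2 groups). In HFD + siRNA versus LFD 1 was called, 0 at an adjusted p under 0.01, 0 with near-identical members summed, and 0 to 1 with a library left out.

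Of the 20 sign changes, 19 concerned values that were not called. In HFD versus LFD, Cyp4a14 took log2 fold changes of -1.7e-04 with DESeq2, -5.7e-04 with RLE size factors, -0.07 with GC content and length offsets, and -0.35 to 0.28 with a library left out, and Cyp4a10 -0.12 to 0.38. With near-identical members summed, Cyp4a32 took 0.08 there, and Cyp4a31, called in HFD + siRNA versus HFD, took 0.11 because the sum is mostly Cyp4a10. With a library left out, Cyp4a10 took -0.19 to 0.23 and Cyp4a12b -0.20 to 1.07 in HFD + siRNA versus HFD, and Cyp4a10 -0.11 to 0.40 in HFD + siRNA versus LFD.

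Of 24 correlations between same-numbered libraries, taken on deviations from group means, 5 were above 0.1 (range -0.13 to 0.34). Differently numbered libraries were not correlated beside them, so these values cannot settle whether the replicate numbers pair the libraries. The common dispersion was 0.0344 with the replicate number as a block and 0.038 without it. With the replicate number as a block, 3299 genes were called between HFD and LFD and 3341 for the inhibitor against HFD, beside 3369 and 3339 without it, and the uncalled Cyp4a14 value in HFD versus LFD was -0.05. With the block and GC content and length offsets together that value was -0.14, and 2 members were called in HFD + siRNA versus LFD, the second being Cyp4a12a (-1.17, edgeR adjusted p = 0.0488). The offsets cover 15858 genes (86.5% of those tested). With offsets alone, 2442 genes were called between HFD and LFD, 1438 for the siRNA and 3330 for the inhibitor (both against HFD), beside 3369, 2154 and 3339 without. The inhibitor against the siRNA gave 4545 (6207 without), the inhibitor against LFD 4629 (6767) and the siRNA against LFD 2008 (1582). Across 8229 genes, Spearman's correlation of log2 fold change with GC content ranged from -0.56 to 0.51 over the comparisons, and the cause of the differences was not tested. The lowest counts behind a member were 62.5 to 143 for Cyp4a31 in LFD and 72.8 for Cyp4a12b in HFD replicate 3.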
